A study of Mus musculus with 45 samples.

Results

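Etv5 was examined as a locus bound by the transcriptional repressor Capicua (CIC) in the cerebellum of 10-week-old C57BL/6 mice. The locus was chosen by the measured rank of its promoter peak, among the highest of each CIC peak list. That rank, the −log10 q behind it and the presence of peaks were therefore used in the choice and are given as a description with no test. All summits of the 3 deposited CIC peak lists were taken where they fell inside the gene or no more than 50 kb from either end. There were 10 such summits of 9218 in all, at 3 sites, and each site had a peak in each list.

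The lists come from CUT&RUN, in which an antibody bound to a chromatin protein directs a nuclease to release the DNA beneath it. WT mice (n = 4), mice with 1 Atxn1 allele expanded in its polyglutamine tract (Atxn1_154Q/2Q, called 154Q, n = 4) and mice in which the expanded protein has 2 substitutions in its CIC-binding region (Atxn1_154Q[V591A;S602D]/2Q, called 154Q AXH, n = 3) were compared with CIC KO mice (Engrailed1-Cre;Cicfl/fl, n = 4). In the CIC KO, deletion follows the lineage of the Engrailed1-Cre driver, and the paper describes Cic expression as lost throughout the cerebellum. Any cells outside that lineage would keep Cic, which was not examined here. The libraries of each genotype were merged before peaks were called, and the same merged CIC KO libraries were the control for every list, so the lists share their control, each is 1 observation and the spread between animals is unknown. The locus held 4 of 6018 summits in WT, 3 of 2091 in 154Q and 3 of 1109 in 154Q AXH. The comparison asks how CIC occupancy at Etv5 stands in each genotype. Whether a difference between lists exceeds the variation between animals was not tested.

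Etv5 encodes a transcription factor of the PEA3 subfamily of ETS proteins, together with Etv1 and Etv4. PEA3 factors are induced by FGF and other receptor tyrosine kinases through ERK signalling and carry out part of its transcriptional output. CIC binds short TGAATGAA-like octamers through its HMG box, keeps such ERK-responsive genes repressed, and is released or degraded when ERK is active. ATXN1, the protein expanded in spinocerebellar ataxia type 1, is a binding partner of CIC.

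Etv5 (ENSMUSG00000013089.15) lies on the minus strand of chromosome 16 at chr16:22381309-22439719 (GRCm38, GENCODE), a gene body of 58.411 kb. The promoter site was upstream of the start site, which GENCODE places at position 22439719 and RefSeq at position 22439570. The intron 1 site was 1153 to 1157 bp inside the gene by the main transcript. It was also 194 to 198 bp upstream of the start of the other RefSeq transcript, at position 22438368, so it is intronic for one transcript and promoter-proximal for the other. The intron 5 site was 10639 to 10646 bp inside the gene. The only other annotated gene reaching into the window was Dgkg, a diacylglycerol kinase gene on the same strand whose 3′ end is 28741 bp upstream of the Etv5 start, and no summit lay in the part of it within the window.

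The DNA under the 3 sites is shown because the position of the octamers relative to the summits differs between them. Each sequence is the minus strand of GRCm38, in the direction of Etv5 transcription, and reaches about 50 to 100 bp beyond the summits. Capitals mark the octamers TGAATGAA, TGAATGGA, TCAATGAA and TCAATGGA, searched on both strands, and also the form TGAATGGG, which was added after the sequences were seen. CCCATTCA is TGAATGGG on the opposite strand.
Promoter, chr16:22439760-22439958, minus strand: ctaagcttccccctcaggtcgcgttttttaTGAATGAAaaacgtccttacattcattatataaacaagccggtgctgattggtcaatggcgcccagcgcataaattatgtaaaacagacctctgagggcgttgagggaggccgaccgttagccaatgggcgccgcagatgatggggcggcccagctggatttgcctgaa
Intron 1, chr16:22438457-22438671, minus strand: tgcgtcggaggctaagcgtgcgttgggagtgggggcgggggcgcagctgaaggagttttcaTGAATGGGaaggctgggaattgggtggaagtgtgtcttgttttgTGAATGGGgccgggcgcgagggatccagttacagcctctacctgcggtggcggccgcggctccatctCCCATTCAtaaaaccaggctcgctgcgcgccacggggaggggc
Intron 5, chr16:22429013-22429140, minus strand: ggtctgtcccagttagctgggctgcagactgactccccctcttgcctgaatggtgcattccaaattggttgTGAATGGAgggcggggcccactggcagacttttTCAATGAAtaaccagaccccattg
Counted from the 5′ end, the summit base in the promoter sequence is 65 in WT, 61 in 154Q and 139 in 154Q AXH. In the intron 1 sequence it is 107, 110 and 106, and in the intron 5 sequence 61, 68 and 64. The intron 1 sequence was the richest in GC, with 63.3% GC and 17 CpG in 215 bp, against 51.3% and 12 CpG in 199 bp at the promoter and 53.9% and 1 CpG in 128 bp at intron 5.

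**Figure D1:**
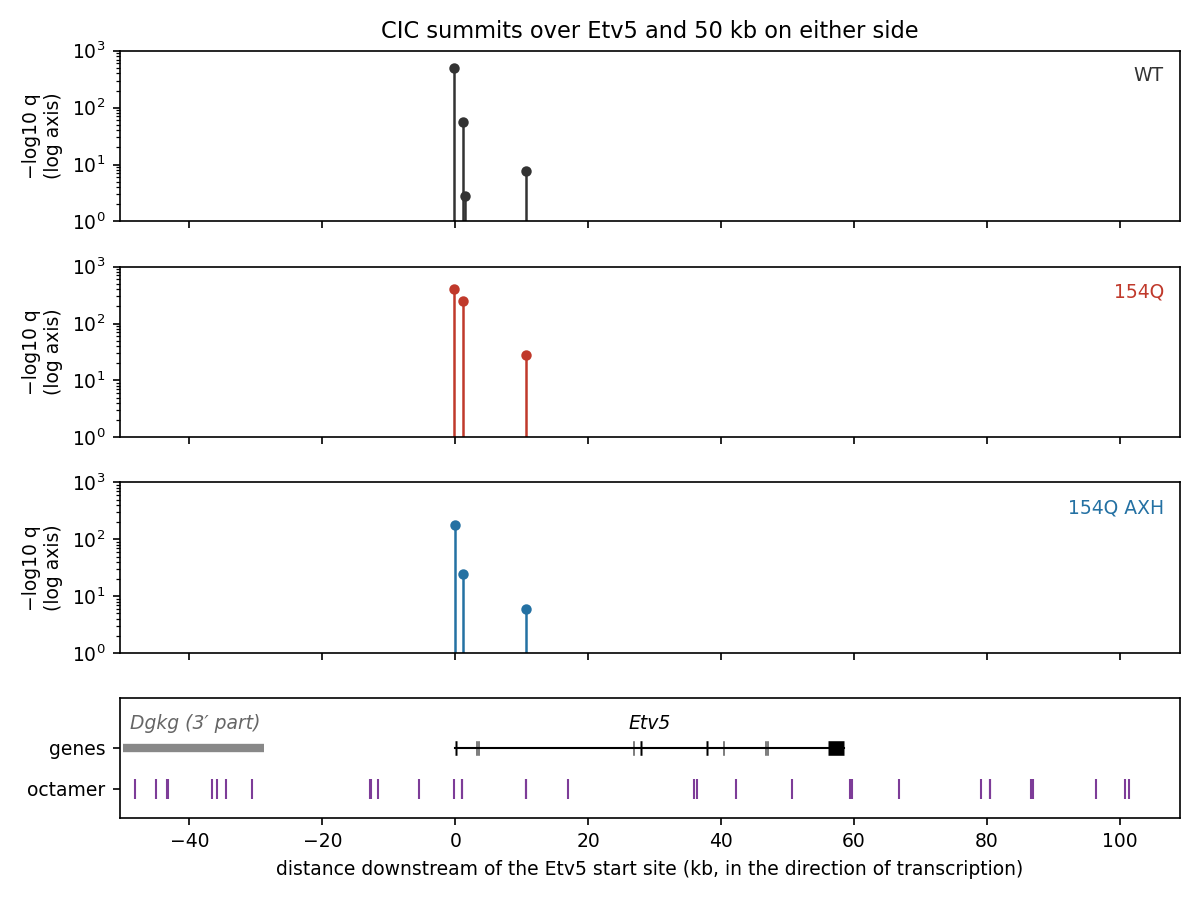
CIC summits over Etv5 and the 50 kb on either side. Each stem is a summit of the list named in its panel, at its distance downstream of the Etv5 start (kb) and with its −log10 q on a log axis, and the lowest panel shows the Etv5 exons, the end of Dgkg and the CIC octamers. All summits lie between 179 bp upstream and 10646 bp downstream of the start, while most of the 33 octamers have no summit.

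The promoter site was the most significant of the Etv5 sites in every list. Its −log10 q reached 488 in WT, 398 in 154Q and 180 in 154Q AXH. It ranked 3 of 4588 peaks in WT, 4 of 1690 in 154Q and 6 of 918 in 154Q AXH on the assembled chromosomes. The 2 peaks above it in WT and the 5 in 154Q AXH were all soft-masked repeats over more than 50% of their length, with fold enrichments of 2.37 to 3.24 and 1.97 to 3.22. After such peaks were removed, as had been done for the deposited 154Q list, the Etv5 promoter ranked 1 of 4432 in WT, 4 in 154Q and 1 of 848 in 154Q AXH. In 154Q, the peak just above it was nearest Hsd17b12 with a −log10 q of 425, and the one just below had 370.1. In WT the one just below, nearest Mrc2, had 446, and in repeat-filtered 154Q AXH the one just below, at Spry4, had 123.

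**Figure D2:**
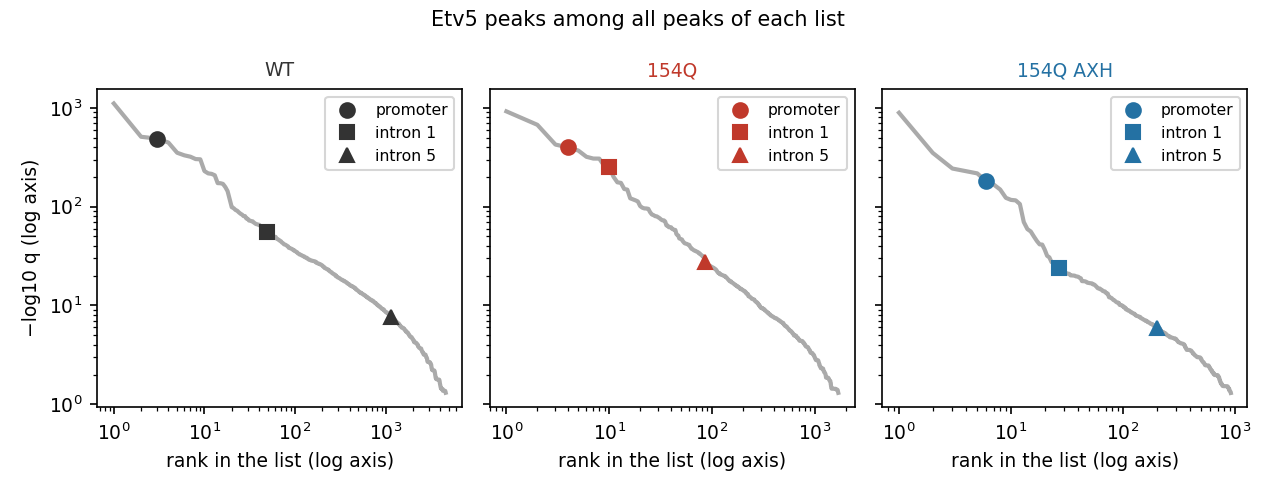
Etv5 peaks among all peaks of each list. The grey line gives −log10 q (log axis) against rank in the list (log axis) for all peaks, and symbols mark the promoter, intron 1 and intron 5 sites of Etv5. The promoter ranks 3, 4 and 6 in WT, 154Q and 154Q AXH, while the intron sites sit at ranks 49 and 1154 in WT, 10 and 86 in 154Q, and 27 and 202 in 154Q AXH.

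Fold enrichment, the ratio of treatment fragments at the summit to the background the caller took from CIC KO, which is at least the genome-wide value, with 1 added to each, ordered the locus differently from −log10 q. At the promoter it was 5.90 in WT and 4.58 in 154Q AXH, and the 154Q list carries no fold enrichment. In WT 127 peaks had a higher fold enrichment than the Etv5 promoter, against a median of 2.97 over all WT peaks, and in 154Q AXH 44 peaks did. The pileup, recovered from fold enrichment and −log10 p, was 1193 fragments in WT (95% Poisson interval 1126 to 1263) and 568 in 154Q AXH (522 to 617). These intervals cover counting error only. A higher pileup was found at 8 of 4588 WT peaks and 9 of 918 154Q AXH peaks, and at none after the repeat filter. Since a high −log10 q at a moderate fold enrichment requires many fragments, these counts follow from the choice of the locus. Over all peaks the median was 30 fragments in WT and 26 in 154Q AXH.

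The CIC KO background at the promoter was also high. It was 201 fragments in the WT comparison, 30.5 times the genome-wide background of 6.59, and 123 fragments in the 154Q AXH comparison, 23.4 times the genome-wide background of 5.28. Both come from the same merged CIC KO libraries, while the genome-wide value differs between the comparisons. Fragment numbers of WT and 154Q AXH are therefore not on a common scale. The median background over WT peaks was 8.22 fragments. A higher background was found at 15 of 4588 WT peaks and 11 of 918 154Q AXH peaks. In the repeat-filtered lists, 4 WT peaks and 0 of 848 peaks in 154Q AXH had a higher background. The background was 16.9% of the pileup in WT and 21.7% in 154Q AXH. Among the other 9 of the 10 highest-ranked repeat-filtered peaks, this share ranged from 5.79 to 16.3% in WT and from 10.3 to 23.7% in 154Q AXH.

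The promoter peak was broad and its summit differed in position. The WT peak spanned chr16:22439626-22440367 (742 bp) and the 154Q AXH peak chr16:22439637-22440169 (533 bp), which lay wholly inside it and covered 71.8% of it. Widths above that of the WT promoter peak were found in 78 of 4588 WT peaks, against a median of 213.5 bp. The summit was at position 22439894 in WT and 22439898 in 154Q, 175 and 179 bp upstream of the GENCODE start and 4 bp apart. In 154Q AXH it was at position 22439820, 101 bp upstream of the start, 74 bp from the WT summit and 78 bp from the 154Q summit. A summit is the position of the highest pileup and carries no error here, so whether this shift exceeds the variation between animals was not tested.

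At the intron 1 site the summits nearly coincided. They were at positions 22438565 in WT, 22438562 in 154Q and 22438566 in 154Q AXH, between 1 and 4 bp apart. The WT peak (chr16:22438235-22438983, 749 bp) contained the whole 154Q AXH peak (chr16:22438421-22438703, 283 bp), which covered 37.8% of it. The fold enrichment of 6.40 in WT and 4.65 in 154Q AXH was the highest of the Etv5 sites in both lists. The promoter followed closely with 5.90 and 4.58. The pileup was 129 fragments in WT (108 to 153) and 80 fragments in 154Q AXH (63.4 to 99.6). The background was 19.3 and 16.4 fragments, 2.93 and 3.11 times the genome-wide value. This site therefore had an enrichment close to that of the promoter in WT, on a CIC KO background of 19.3 against 201 fragments. Whether its enrichment exceeds that of the promoter beyond counting error was not tested.

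The −log10 q of the intron 1 site reached 55.8 in WT, 253 in 154Q and 24.2 in 154Q AXH, which ranked it 49, 10 and 27. It was thus highest in 154Q, where it stood beside the promoter with a ratio of promoter to intron 1 −log10 q of 1.57, against 8.75 in WT and 7.45 in 154Q AXH. The WT list alone had a lower summit in the same peak, at position 22438276, 289 bp from the main one and 92 bp past the start of the other RefSeq transcript. It had a fold enrichment of 2.59, a −log10 q of 2.78 and a pileup of 31 fragments (21.1 to 44.0).

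**Figure D3:**
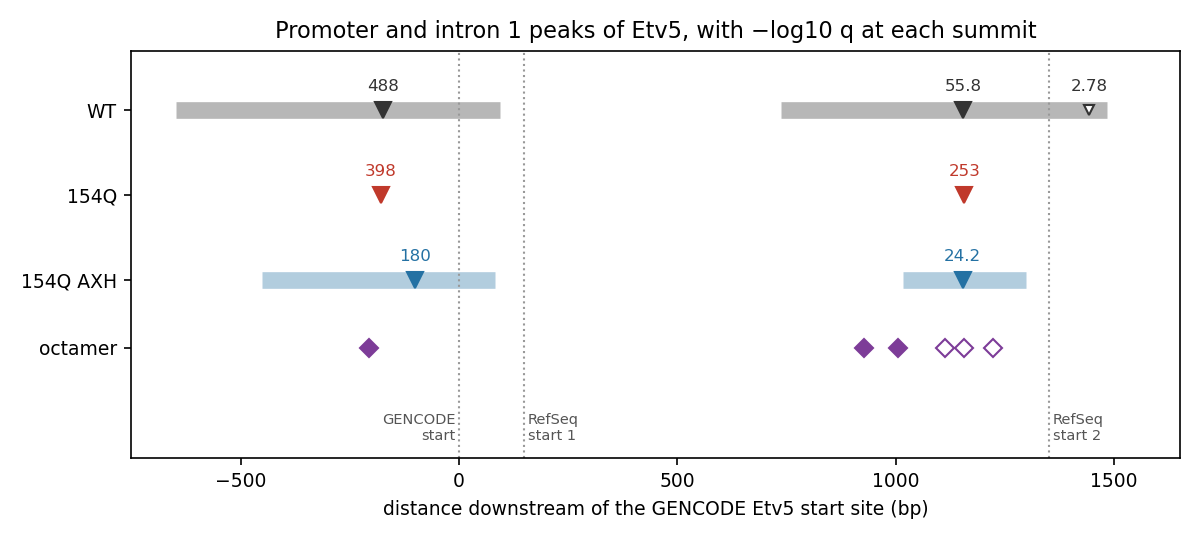
Promoter and intron 1 peaks of Etv5. Bars are peak intervals of WT and 154Q AXH (the 154Q list has no intervals), triangles are summits with their −log10 q (open, the lower WT summit), filled diamonds the searched octamer and open diamonds its added form, against distance downstream of the GENCODE start (bp). The intron 1 summits lie within 4 bp of each other on an added form, while the 154Q AXH promoter summit is 74 bp nearer the start than in WT.

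The intron 5 site was the weakest. Its summits were at positions 22429080 in WT, 22429073 in 154Q and 22429077 in 154Q AXH, between 3 and 7 bp apart. Its peaks, chr16:22428984-22429252 (269 bp) in WT and chr16:22428938-22429136 (199 bp) in 154Q AXH, shared 153 bp, which is 56.9% of the WT peak and 76.9% of the other. The fold enrichment was 3.39 in WT and 3.49 in 154Q AXH, on pileups of 42 fragments (30.3 to 56.8) and 35 fragments (24.4 to 48.7). The background was 11.7 and 9.32 fragments. The −log10 q reached 7.67 in WT, 27.4 in 154Q and 5.93 in 154Q AXH, and the ranks were 1154, 86 and 202.

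**Figure D4:**
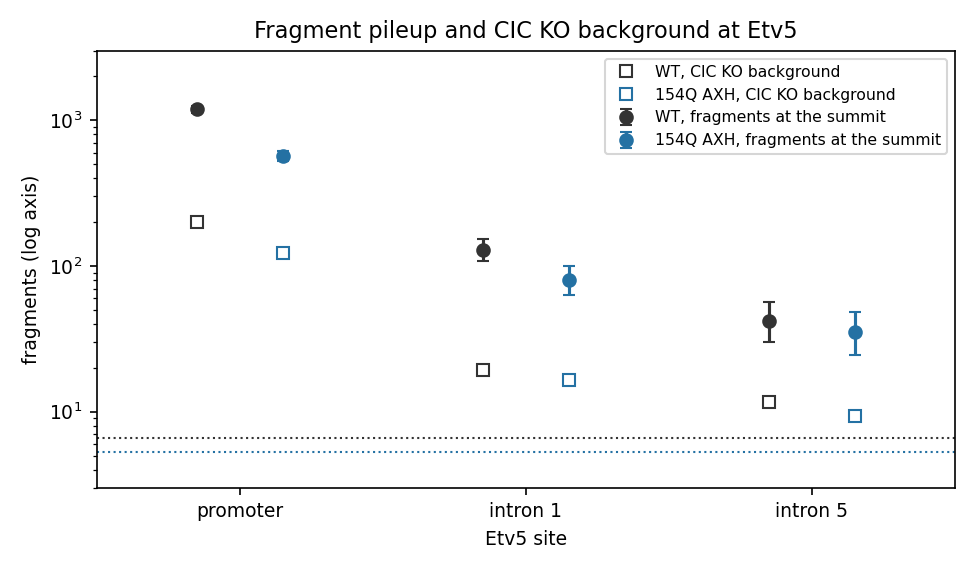
Fragment pileup and CIC KO background at the Etv5 sites. Filled circles give fragments at the summit with exact 95% Poisson intervals, open squares the CIC KO background there, and dotted lines the genome-wide background, for WT and 154Q AXH on a log axis. The promoter has the highest pileup, 1193 and 568 fragments, and also the highest background, 201 and 123 fragments.

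Spacing between sites was nearly constant apart from the promoter. From the intron 1 to the intron 5 summit there were 9485 bp in WT, 9489 bp in 154Q and 9489 bp in 154Q AXH. From the promoter to the intron 1 summit there were 1329, 1336 and 1254 bp in the same order. At each site the 154Q summit lay inside both the WT and the 154Q AXH interval, so 3 of 3 sites were found in all 3 lists at their full length. With each list limited to its top 918 peaks, intron 5 at rank 1154 was not among the WT peaks. No further peak lay within 100 kb of either end of the gene in any list. The nearest peak downstream of the gene end was at Tra2b, 115 kb away in WT and in 154Q, and 8222 kb away (Marf1) in 154Q AXH. The nearest upstream was 668 kb away (Eif4a2) in WT and in 154Q AXH and 358 kb away, nearest Crygs, in 154Q.

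WT and 154Q AXH could be compared on fold enrichment, since both lists carry it. The ratio of WT to 154Q AXH was 1.29 at the promoter (95% counting interval 1.17 to 1.43), 1.38 at intron 1 (1.03 to 1.84) and 0.970 at intron 5 (0.605 to 1.57), with the backgrounds taken as fixed. At the promoter these values come from summits 74 bp apart, where the pileup ratio was 2.10 and the background ratio 1.63, against background ratios of 1.18 at intron 1 and 1.26 at intron 5. Over the 588 WT peaks found in both lists after the repeat filter, the median ratio was 1.23, with quartiles of 1.01 and 1.55. Ratios above that of the promoter, of intron 1 and of intron 5 were found in 44.6%, 37.4% and 78.7% of these peaks. The Etv5 ratios therefore lay near the middle of the shared peaks for the promoter and intron 1 and in the lower part for intron 5. Against the 86 shared peaks that rank in the top 100 of the repeat-filtered WT list, where the median was 1.68 and the quartiles 1.48 and 2.00, the promoter and intron 1 ratios were below the lower quartile, and intron 5, at rank 1117, is not in that set. Choosing peaks for a high WT rank favours a high WT value, and the WT merge holds 4 animals against 3, so neither set is a neutral reference. The genotype and the makeup of the merged libraries cannot be told apart.

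**Figure D5:**
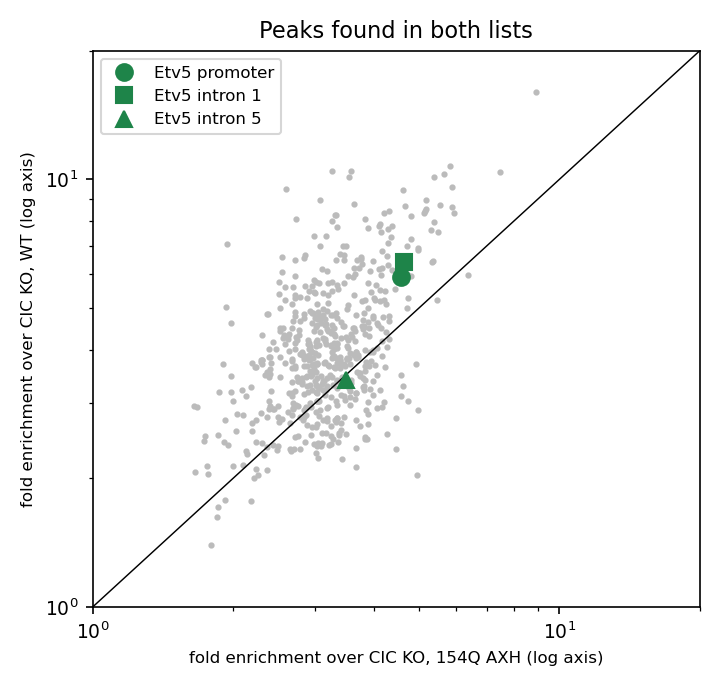
Fold enrichment over CIC KO at the peaks found in both lists, WT against 154Q AXH (both log axes). Grey points are the 588 shared peaks after the repeat filter, green symbols the Etv5 sites, and the line marks equal values. The promoter and intron 1 lie above the line at ratios of 1.29 and 1.38, and intron 5 lies on it at 0.970.

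For 154Q only −log10 q was given, which grows with depth as well as with enrichment. The ratio of the 154Q to the WT −log10 q was 0.815 at the promoter, 4.54 at intron 1 and 3.58 at intron 5. At the 410 WT peaks found in all 3 lists after the repeat filter, the median of this ratio was 0.548, and 141, 5 and 9 of them had a higher ratio than the respective Etv5 site. The ratio of 154Q AXH to WT was 0.369, 0.433 and 0.773, against a median of 0.292, with 159, 123 and 55 peaks higher. All 3 Etv5 sites were above the median in both ratios. Both ratios divide by the same WT value, so a low WT value raises both. The 410 peaks were not matched to Etv5 in rank, and −log10 q was used in choosing the locus. At the best peaks of Etv1, Etv4, Spry4, Hsd17b12, Clstn2 and Spred1 the 154Q value was above the WT value, unlike at the Etv5 promoter. At Gm47283 it was below. The lists share the CIC KO control, and no test was made.

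The size of the 154Q value at intron 1 was put in fragments, in a calculation chosen after the data were seen. On the WT background of 19.3 fragments, a −log10 q of 253 needs a pileup of at least 313 fragments, a fold enrichment of 15.5, where WT had 129 fragments. On the 154Q AXH background it needs at least 297 fragments, and on a WT background multiplied by 2 at least 402 fragments with a fold enrichment of 10.2. At intron 5 the WT background gives at least 66 fragments, where WT had 42, and the 154Q AXH and multiplied backgrounds give at least 59 and 94. At the promoter, where WT had 1193 fragments, the 3 backgrounds give at least 1065, 848 and 1526. These are lower bounds, each for an assumed background. The background that applied to 154Q is not known, because its list gives no fold enrichment. The bounds of 1065 and 848 therefore do not place the 154Q promoter pileup below that of WT. The part of sequencing depth in these values was not tested.

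The fixed octamer stood at different distances from the sites. At the promoter a TGAATGAA (chr16:22439921-22439928, minus strand) was centred 30.5 bp from the WT summit, 26.5 bp from the 154Q summit and 104.5 bp from the 154Q AXH summit. At intron 5 a TGAATGGA was centred 14.5, 7.5 and 11.5 bp from the summits in that order, and a TCAATGAA 47.5, 40.5 and 44.5 bp. At intron 1 the nearest searched octamers, a TGAATGAA at 149.5, 152.5 and 148.5 bp and another at 227.5, 230.5 and 226.5 bp, lay outside the 50-bp window. The intron 1 summits coincided instead with the added form TGAATGGG. One copy (chr16:22438559-22438566, minus strand) was centred 2.5 bp from the WT summit, 0.5 bp from the 154Q summit and 3.5 bp from the 154Q AXH summit. The other copies were 41.5, 44.5 and 40.5 bp and 69.5, 66.5 and 70.5 bp away, so the site held 3 copies within 100 bp of the summit.

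With the whole octamer required within 50 bp, 2 of 4 summits had it in WT, 2 of 3 in 154Q and 1 of 3 in 154Q AXH. The WT count includes the lower intron 1 summit, which lacked it, so by peak WT had 2 of 3. The shares that follow are of peaks, each taken at its main summit. Over all peaks of these lists the share was 2.33%, 6.57% and 3.38%, and 3.77% of 32544 RefSeq promoters of 300 bp held it. The promoters are longer than the windows around the summits, so these shares are not on a like length. Within 100 bp of the summit, which is still shorter, the peak shares were 4.16%, 9.59% and 5.34%. With a last base of A or G allowed in addition, the shares within 50 bp were 3.84%, 10.2% and 4.68% of peaks. Within 100 bp they were 7.19%, 14.9% and 8.17%, and 6.94% of the promoters of 300 bp held this form. At least 3 copies of the broader form within 100 bp were found at 19 of 4588 WT peaks (0.414%), 22 of 1690 154Q peaks (1.30%) and 6 of 918 154Q AXH peaks (0.654%), the Etv5 intron 1 peak among them. This form and this count were taken from the intron 1 sequence itself, so the shares are a description of how often the pattern recurs. Across the 158.411-kb window there were 33 octamers, or 20.8 per 100 kb against 25.8 over chromosome 16. Of these, 3 lay within 50 bp of a main summit and 28 were more than 1000 bp from any summit. A match describes the sequence and is not evidence of binding by itself.

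Set beside all genes, a summit within 50 kb was common and 3 or more were less so. By the rule used for Etv5, 35.9% of 21938 protein-coding genes had a summit in WT, 18.0% in 154Q and 11.5% in 154Q AXH, and 11.9%, 3.27% and 1.07% had at least 3. Etv5 was chosen with its peaks known, so its own count is not read against these shares.

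The other PEA3 genes also had summits in each list. Etv1, on chromosome 12, had 10 summits in WT, 7 in 154Q and 4 in 154Q AXH, in 4, 4 and 3 peaks. Its strongest site was 1402 bp inside the gene in WT, with a fold enrichment of 7.34, a pileup of 148 fragments and a background of 19.3, much like the values at intron 1 of Etv5. The −log10 q there reached 72.1 in WT, 201 in 154Q and 20.2 in 154Q AXH, at ranks 32, 11 and 34. A site 696 bp upstream of the Etv1 start had a lower fold enrichment of 2.77 on a background of 86.6 fragments in WT. Etv4, on chromosome 11, had 2 summits in each list. A distal summit was 52480 bp downstream of its start in WT, beyond the end of this gene of 15.63 kb. The promoter site was 13 bp upstream of its start in WT, with a fold enrichment of 3.22, a pileup of 338 and a background of 104 fragments. The −log10 q of this promoter site reached 68.0 in WT, 257 in 154Q and 14.3 in 154Q AXH, at ranks 36, 9 and 65. The promoter of Etv5 had a lower −log10 q in 154Q than in WT, whereas the best sites of Etv1 and Etv4 had a higher one.

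Of 17 ERK feedback and output genes, Etv5 included, 12 had a summit in WT, 12 in 154Q and 8 in 154Q AXH, that is 70.6%, 70.6% and 47.1%, and 6, 8 and 4 had at least 3 summits. Over all protein-coding genes the shares with a summit were 35.9%, 18.0% and 11.5%, and with at least 3 summits 11.9%, 3.27% and 1.07%. The ERK list was drawn up with results of these data known and holds genes known here for their peaks, so its counts are a description and are not read against the shares of all genes. Among those with a summit in each list were Spry4, an inhibitor of receptor tyrosine kinase signalling (ranks 8, 2 and 9 in WT, 154Q and 154Q AXH), Spred1, a Ras pathway inhibitor (15, 7 and 15), Spred2 (91, 14 and 64), and the MAP kinase phosphatase genes Dusp4 (19, 8 and 22) and Dusp5 (314, 69 and 89). Spred3, Dusp6, Shc3 and Ccnd1 had summits in WT and 154Q only. Spry1, Spry2, Il17rd, Flrt3 and Ccnd2 had none in the 3 lists. Of 23 ETS genes outside the PEA3 subfamily, 10 had a summit in WT, 5 in 154Q and 3 in 154Q AXH, and 4, 1 and 1 had at least 3. The ETS repressor gene Erf had 15, 6 and 5 summits by this rule, with 0 in its own body or the 5 kb upstream. The shares for these ETS genes were 43.5%, 21.7% and 13.0% against 35.9%, 18.0% and 11.5% of all protein-coding genes, where 11.9%, 3.27% and 1.07% had at least 3, with no test made.

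The genes with ranks most like those of Etv5 were found over 519 protein-coding genes with a peak in all 3 lists, by the Euclidean distance of log10 rank over the 3 lists. They were Hsd17b12, which encodes a hydroxysteroid dehydrogenase (ranks 5, 3 and 12, distance 0.394), Spry4 (8, 2 and 9, 0.551), Clstn2, a calsyntenin gene (10, 6 and 17, 0.713), Spred1 (15, 7 and 15, 0.840) and Gm47283 (16, 16 and 13, 1.00). These ranks are of the lists as deposited, of which only that of 154Q had repeat peaks removed. With the repeat filter on the other lists, a setting chosen after seeing the data, the nearest were the same 5 genes over 518, with Spry4 (0.737) ahead of Hsd17b12 (0.778). Of these, Spry4, Hsd17b12, Clstn2 and Spred1 had a higher −log10 q in 154Q than in WT, for example 674 against 303 at Spry4, whereas Etv5 had 398 against 488. Gm47283 had 122 in 154Q against 170.1 in WT.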

How the data were processed

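CUT&RUN with a CIC antibody was done by the authors. Per the labels and methods, reads were trimmed (Trimmomatic 0.36), aligned to mm10 (GRCm38) with Bowtie2 2.3.4.1 and handled with SAMtools 1.10 and bedtools 2.29.1. Fragments under 120 bp were kept, blacklisted regions were removed, and merged libraries of each genotype were called against merged CIC KO libraries with MACS at a q-value of 0.05. For WT and 154Q AXH, the deposited lists give each summit a fold enrichment, a ratio of pileup to control with 1 added to each, and a −log10 p and −log10 q. The deposited 154Q list holds summits and 1 column of values, taken as −log10 q because they begin at the calling threshold, with repeat peaks removed. Peak starts, ends and summit offsets gave positions and widths, and a deposited integer score column was not used.

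Here, lines were collapsed to peaks, each represented by its highest −log10 q. Whole pileups were recovered by matching the Poisson tail to −log10 p at the given fold enrichment (relative tolerance 0.0001) with exact 95% Poisson intervals. This was tested on simulated data. Depth per animal is not given by the lists, and the 30 H3K27ac and IgG samples were not analysed here. Counterparts were summits within 100 bp. Peaks with over 50% lower-case bases counted as repeats. Annotation was GENCODE M21 basic and RefSeq. Genes named were Etv5, window genes, Etv1, Etv4, the 5 genes of most similar rank, and members of the ERK and ETS lists with a summit. ERK list members without a summit, and the genes nearest the adjoining ranks and the adjoining peaks, were named in addition, after their values were seen. Members and lists were chosen with earlier results of these data known. Alternatives concerned the flank, ranking, repeat filter, counterpart distance, octamer and its window. Python 3.11.15, pandas 2.3.3, numpy 2.4.6 and SciPy 1.17.1 were used.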

Additional observations from a re-analysis of the deposited data

How the results depend on the processing

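Of 77 alternatives over 18 results, 70 left the value within the stated limits and 7 moved it. The number of Etv5 peaks and the counterparts between lists stayed within 1.5 times under every alternative run, but with lists limited to their top 918 peaks the counterparts between WT and either other list fell from 3 to 2, since intron 5 at WT rank 1154 was left out. With counterparts within 50 bp, those between 154Q AXH and either other list also fell from 3 to 2, as the promoter summits are 74 and 78 bp apart. The rank of the best Etv5 peak depended on the measure. Ranked by fold enrichment it was 91 in WT and 39 in 154Q AXH, where the best site is intron 1. With repeat peaks removed it was 1 in WT and 1 in 154Q AXH. With the octamer required within 25 bp, the summits having it fell from 2 to 1 in WT and from 2 to 1 in 154Q. With a last base of A or G, an alternative chosen after seeing the data, they rose from 1 to 2 in 154Q AXH and from 2 to 3 in WT and in 154Q. These changes follow from how the alternatives are built. No paired analysis was possible because replicates were merged before peak calling, and for the same reason no animal could be left out. Values at intron 5 rest on 42 and 35 fragments, and the depth of 154Q is unknown.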
